A study of Mus musculus with 2 samples.

Results

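The 10 genes described here encode cell-surface receptors of the immunoglobulin superfamily: the adhesion molecules Ncam1, L1cam, Vcam1, Icam1, Alcam, Mcam and Cadm1, and the promyogenic receptors Cdon, Boc and Neo1. They were taken by gene symbol, and all 10 were found among 21829 symbols. The study asked how loss of Gne, the enzyme that starts sialic acid synthesis, alters muscle cells. RNA was measured in C2C12, an immortalised mouse myoblast line grown in medium with fetal bovine serum, in 1 library from unedited WT cells and 1 library from KO cells. In KO cells, CRISPR–Cas9 left an indel with a premature stop codon in an early coding exon of Gne, and KO clones were expanded from single cells, so an effect of Gne and a difference between a clone and its parental culture cannot be told apart. With 1 library per line, no difference below has a replicate check and no test of the genotype was possible.

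Immunoglobulin-family adhesion molecules bind partners on neighbouring cells or in the matrix, and many carry sialic acid on their sugar chains. Ncam1 is the best known carrier of polysialic acid and marks myoblasts and regenerating fibres. Cdon and Boc sit with cadherins at contacts between myoblasts, where they promote differentiation, and also act as co-receptors for Hedgehog ligands. Neo1, a relative of the netrin receptor Dcc, binds netrins and repulsive guidance molecules and also promotes myogenic differentiation. Vcam1 and Icam1 are bound by integrins.

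Expression was read as FPKM, a count of fragments corrected for transcript length and library size, so that genes of different length can be compared. Column totals were 568543 for WT and 574253 for KO. The number of reads was not given in the sources used here. Over 383 genes with low values on both sides, the commonest KO to WT ratio was 1.14, the size expected if the WT library were deeper by that factor. Only 28 of the 383 genes lay in that bin, which was 0.02 wide, so this is no measure of depth. Gne itself had 6.67 FPKM in WT and 7.34 FPKM in KO, and this RNA level did not show which library was edited. Here and below, “more than 2-fold” is read after 1 was added to both values, and “past a plain ratio of 2” with nothing added. Among the myoblast markers, Myod1, Des, Cdh15 and Chrna1 were more than 2-fold lower in KO, Myf5 was more than 2-fold higher, and Pax7 and Msc were listed at 0 in both libraries. The 6 endothelial markers summed to 0.019 FPKM in WT and 0.028 FPKM in KO, with Cdh5, Kdr and Emcn at 0 in both. The 6 leukocyte markers summed to 2.86 and 1.08 FPKM, nearly all from Cd68, with Ptprc, the common leukocyte marker, at 0 in both. The 5 epithelial markers summed to 18.9 and 6.20 FPKM, nearly all from Krt14, with Epcam and Cldn4 at 0 in both. The 7 fibroblast and fibro-adipogenic markers summed to 219 FPKM in WT and 434 FPKM in KO, with Lum and Thy1 at 0 in both. The higher sum in KO came mostly from Col1a1, at 9.66 and 273 FPKM. Dcn, at 0.272 and 1.68 FPKM, and Dpt, at 0.041 and 0.493 FPKM, were also higher in KO but averaged below 1 FPKM. Ly6a had 198 and 146 FPKM and Pdgfra 10.8 and 12.3 FPKM. The 5 smooth muscle and pericyte markers summed to 286 and 641 FPKM, mostly from Acta2, at 213 and 544 FPKM. Pdgfrb was also higher in KO, at 54.5 and 80.2 FPKM. Cspg4 had 18.9 and 16.8 FPKM, and Myh11 and Rgs5 were below 1 FPKM. The part of these shifts in the results below was not tested. In bulk RNA, fewer cells of a type and less RNA per cell cannot be told apart.

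The 3 promyogenic receptors all had higher values in KO, and so had Vcam1, while the other adhesion molecules differed little or were near 0. Log2 fold changes below compare KO with WT after 1 was added to each value, which shrinks the differences of genes with low levels. Of the 10 genes, 7 averaged 1 FPKM or more over the libraries, and each of the 7 reached 1 FPKM in both. None of these 7 was more than 2-fold higher or lower, against 2.84% of 10542 genes that were more than 2-fold higher and 3.43% that were more than 2-fold lower. With nothing added, a setting tried after the values were seen, Boc alone was past a plain ratio of 2, against 4.04% of genes higher and 4.61% lower. Of the 7, 6 were higher in KO and 1 was lower, against 50.7% and 49.3% of all 10542 genes. The median of the 7 was 0.66, against 0.01 over all 10542 genes. That median depended on the added value and on the filter, and was 0.28 with an added 5 and 0.24 over all 10 members without a filter. At a smaller fold of 1.5, set after the values were seen, 4 of the 7 were higher and 0 lower, against 7.68% and 7.5% of all genes. These 4 were Cdon, Neo1, Boc and Vcam1. Summed over the 10 genes, the level was 134 FPKM in WT and 199 FPKM in KO, and Neo1 and Vcam1 made up most of it.

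**Figure D1:**
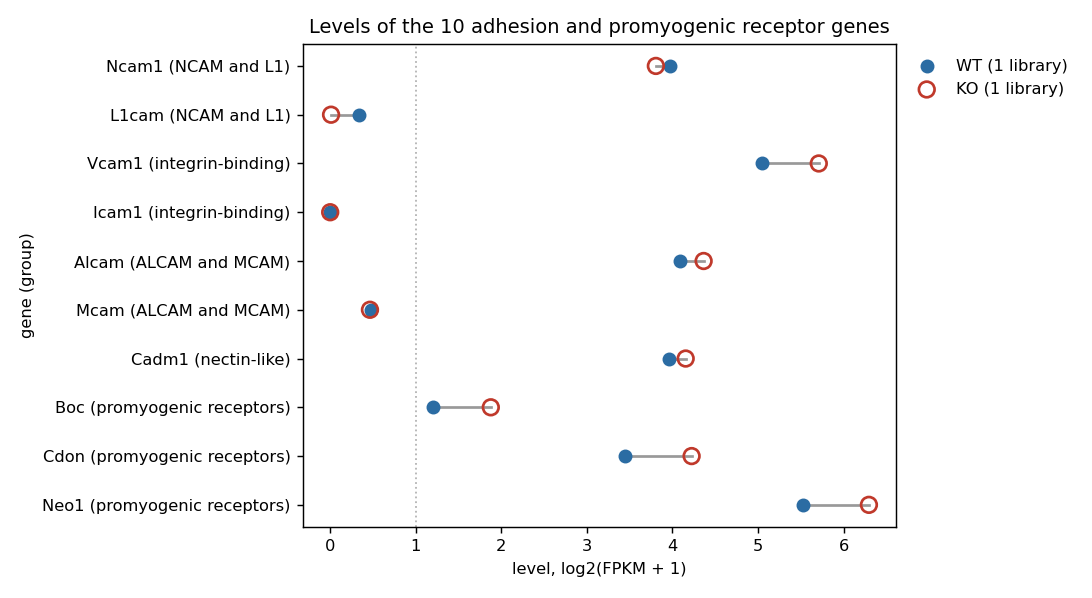
Level of each of the 10 genes in the WT library (filled blue points) and the KO library (open red circles) on a log2(FPKM + 1) axis, 1 library each, with a grey line joining the pair and a dotted line at 1 FPKM. The 3 promyogenic receptors and Vcam1 had the widest gaps, and L1cam, Icam1 and Mcam lay left of the dotted line.

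Neo1, the receptor for netrins and repulsive guidance molecules, had the highest level of the 10 genes in both libraries. It had 45.1 FPKM in WT and 77.6 FPKM in KO, a ratio of 1.72 and a log2 fold change of 0.77. Of 2336 genes whose mean lay within 2-fold of that of Neo1, 56 had a log2 fold change as high or higher, which is 2.4%. Cdon, the co-receptor that associates with cadherins between myoblasts, had 9.90 FPKM in WT and 17.7 FPKM in KO. Its ratio was 1.79 and its log2 fold change 0.78, the highest of the 10 genes, and 157 of 4457 genes of similar level reached it. Boc, the closest relative of Cdon, was far less abundant, at 1.3 FPKM in WT and 2.67 FPKM in KO. The plain ratio of Boc was 2.06, above those of Cdon and Neo1, but its log2 fold change was 0.68 because the added 1 weighs on low values. Genes of such a low level spread more widely, and 209 of 1523 genes of similar level, 13.7%, had a log2 fold change at least as high as Boc. The proportions among the 3 receptors differed little between the libraries. Neo1 exceeded Cdon by a ratio of 4.56 in WT and 4.39 in KO, and Cdon exceeded Boc by 7.62 in WT and 6.62 in KO.

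RefSeq promoter windows, 250 bases before to 50 bases after a transcript start on GRCm38.p6, were found for 6 of the 10 genes (Cdon, Neo1, Icam1, L1cam, Alcam and Mcam) and not for Boc, Vcam1, Ncam1 and Cadm1. The windows of 4 genes are printed 5′ to 3′ on the strand of the gene. Cdon and Neo1 are shown as the receptors with the largest log2 fold changes, L1cam as the gene with the largest ratio between the libraries and Icam1 as the gene listed at 0 in both. Capitals mark every CANNTG, the E-box letters that myogenic basic helix-loop-helix factors such as Myod1 can bind.
Cdon (chr9:35451826-35452125, plus strand): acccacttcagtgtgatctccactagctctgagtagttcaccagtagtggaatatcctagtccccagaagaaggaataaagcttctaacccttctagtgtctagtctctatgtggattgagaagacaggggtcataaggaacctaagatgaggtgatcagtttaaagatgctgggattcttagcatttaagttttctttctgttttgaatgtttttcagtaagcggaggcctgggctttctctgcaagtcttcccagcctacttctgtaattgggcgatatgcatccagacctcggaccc
Neo1 (chr9:59036392-59036691, minus strand): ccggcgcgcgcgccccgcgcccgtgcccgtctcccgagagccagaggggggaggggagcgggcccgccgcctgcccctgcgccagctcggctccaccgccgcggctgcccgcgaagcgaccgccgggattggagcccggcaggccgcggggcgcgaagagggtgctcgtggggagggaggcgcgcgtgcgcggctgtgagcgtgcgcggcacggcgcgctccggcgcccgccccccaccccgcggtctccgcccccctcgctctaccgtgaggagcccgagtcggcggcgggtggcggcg
L1cam (chrX:73880741-73881040, minus strand): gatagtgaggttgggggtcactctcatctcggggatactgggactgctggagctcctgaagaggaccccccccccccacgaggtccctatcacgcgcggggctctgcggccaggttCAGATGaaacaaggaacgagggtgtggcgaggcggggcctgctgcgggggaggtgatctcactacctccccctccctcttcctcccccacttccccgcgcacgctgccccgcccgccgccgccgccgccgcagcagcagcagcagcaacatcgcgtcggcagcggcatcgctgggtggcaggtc
Icam1 (chr9:21015690-21015989, plus strand): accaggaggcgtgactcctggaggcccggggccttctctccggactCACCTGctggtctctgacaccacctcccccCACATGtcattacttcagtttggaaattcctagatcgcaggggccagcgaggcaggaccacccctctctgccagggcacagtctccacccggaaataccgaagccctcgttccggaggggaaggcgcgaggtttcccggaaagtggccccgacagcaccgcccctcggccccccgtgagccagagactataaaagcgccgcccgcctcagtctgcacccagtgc
The Cdon and Neo1 windows hold no CANNTG, which reads the same on both strands and is found in 72.3% of 32851 promoter windows. RefSeq gives L1cam 2 overlapping windows. The printed L1cam window holds 1, starting 134 bases before the transcript start, and the other, chrX:73880785-73881084, holds 2, starting 249 and 90 bases before its own start. The Icam1 window holds 2, starting 204 and 174 bases before the transcript start. L1cam and Icam1 were both near or at 0 in these cells. CANNTG was also found in the windows of Alcam and Mcam, which are not printed, so 4 of the 6 genes held it. The Alcam window holds it from 40 bases before the start, and Alcam had 16.0 FPKM in WT and 19.6 FPKM in KO. The Mcam window holds 2, from 212 bases before the start and from base 3 after it. Mcam had 0.392 FPKM in WT and 0.38 FPKM in KO. A link between these letters and the levels was not tested. CAGCTG, which is 1 form of CANNTG and occurs in 16.3% of windows, was found in none of the 6 genes' windows. Nor was TGGGTGGTC, the letters bound by Gli factors, found on either strand there, against 0.253% of all windows. The NF-kB consensus was in none of them either, against 8.46% of all windows, but the Icam1 window holds GGAAATTCC from 153 bases before the start, which lacks only the first G of that consensus. These letters were searched after the window was seen and occur in 0.317% of windows on either strand. The Icam1 window holds TATAAA, from base 14 after the start, a motif found in 13.6% of windows on either strand. The composition of the pair at the top differs widely. Neo1 has 54 CG pairs and 82.7% G or C, more CG pairs than 99.7% of windows, whereas Cdon has 3 CG pairs and 44.7% G or C, more CG pairs than 23.3% of windows. The Cdon window lies inside the span of the gene, which runs from 35421528 to 35507652 on chromosome 9, so it belongs to an internal start. Which starts were used in these cells was not tested.

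Ncam1, the neural cell adhesion molecule that marks myoblasts, was the only 1 of the 7 expressed genes with a lower value in KO. It had 14.7 FPKM in WT and 13.0 FPKM in KO, a ratio of 0.882 and a log2 fold change of -0.17. This difference was small among all genes, of which 28.9% had a lower log2 fold change. The enzymes that add polysialic acid to Ncam1 were near 0 in both libraries. St8sia2 was listed at 0 in both, and St8sia4 at 0.007 FPKM in WT and 0 in KO. Fgfr1, a receptor tyrosine kinase through which Ncam1 can signal, had 59.6 FPKM in WT and 64.1 FPKM in KO.

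L1cam, a relative of Ncam1 best known from axons, had 0.264 FPKM in WT and 0.007 FPKM in KO. The WT value was 37.7 times the KO value, the largest ratio among the 10 genes, but both values are low. The KO value lay among the lowest that the library holds, above only 0.574% of its values over 0. The log2 fold change of L1cam was -0.33 with the added 1 and -1.77 with an added 0.1. Its mean was below 1 FPKM, so it was not among the genes counted above. The 6 neural and Schwann cell markers moved the same way, from a sum of 18.4 FPKM in WT to 1.44 FPKM in KO, nearly all from Tubb3, with Sox10 and Elavl4 at 0 in both, and their part in the value of L1cam was not tested. The 12 further relatives of Ncam1 and L1cam on a list of NCAM, L1 and contactin genes were all below a mean of 1 FPKM, and 6 of them were listed at 0 in both libraries. Their sum was 0.049 FPKM in WT and 0.874 FPKM in KO, nearly all of the latter from Ncam2, at 0 and 0.417 FPKM, and Cntn1, at 0.025 and 0.445 FPKM. These 2 are named after their values were seen.

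Vcam1, the vascular cell adhesion molecule that is also present on muscle progenitors, was the second most abundant of the 10 genes. It had 32.1 FPKM in WT and 51.3 FPKM in KO, a ratio of 1.6 and a log2 fold change of 0.66. Of 3167 genes of similar level, 94 had a log2 fold change as high or higher. The alpha chains of the integrins that bind Vcam1 were nearly absent, with Itga4 at 0 in WT and 0.004 FPKM in KO and Itga9 listed at 0 in both. Of the beta chains that pair with Itga4, Itgb7 had 30.9 FPKM in WT and 18.6 FPKM in KO, a log2 fold change of -0.71. Itgb1, which pairs with both alpha chains, had 153 FPKM in WT and 247 FPKM in KO, and exceeded Vcam1 by a ratio of 4.76 in WT and 4.82 in KO. Icam1, the counter-receptor of leukocyte integrins, was listed at 0 in both libraries. Its chromosomal neighbours and relatives Icam4 and Icam5 were also low, at 0.32 and 0.055 FPKM for Icam4 and 0.094 and 0.153 FPKM for Icam5 in WT and KO. Both Vcam1 and Icam1 are known as genes that inflammatory signals induce. The signalling genes of that route, a list of 16 NF-kB and cytokine receptor genes all above 1 FPKM, had 0 genes more than 2-fold higher or lower and a median of 0.18. Past a plain ratio of 2 were 2 of the 16, both higher in KO and named after their values were seen. The inhibitor gene Nfkbie had 2.92 and 6.32 FPKM, and Tnfaip3, which restrains the route, had 2.36 and 4.85 FPKM.

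Alcam, which binds itself on adjacent cells, had 16.0 FPKM in WT and 19.6 FPKM in KO, a ratio of 1.23 and a log2 fold change of 0.28. Cd6, its partner on lymphocytes, was listed at 0 in WT and at 0.013 FPKM in KO. Mcam, known from endothelial cells and pericytes, had 0.392 FPKM in WT and 0.38 FPKM in KO, both low and nearly the same. Cadm1, a nectin-like molecule that binds itself and other family members, had 14.5 FPKM in WT and 16.8 FPKM in KO, a ratio of 1.16 and a log2 fold change of 0.20. In WT, Alcam, Ncam1 and Cadm1 thus lay close together, and in KO the order was Alcam, Cdon, Cadm1 and Ncam1. With single libraries, the differences between these neighbours in the order have no error to be read against. The other Cadm genes all averaged below 1 FPKM. Cadm2 was at 0 in both libraries, Cadm3 at 0.012 and 0 FPKM and Cadm4 at 0.813 FPKM in WT and 0.32 FPKM in KO.

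**Figure D2:**
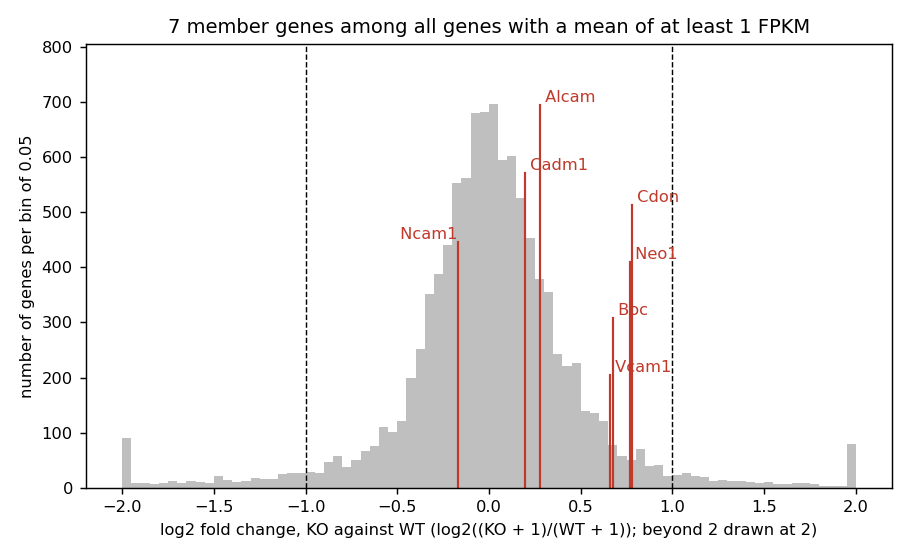
Histogram of the log2 fold change, KO against WT, of 10542 genes averaging 1 FPKM or more (grey, bins of 0.05, values beyond 2 drawn at 2), with the 7 expressed members as red lines and dashed lines at a 2-fold difference. Cdon, Neo1, Boc and Vcam1 lay between 0.66 and 0.78, inside the dashed lines, and Ncam1 was the only member below 0.

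Of the 10 genes, 6 lie on chromosome 9 and 2 on chromosome 16. Of the 7 members averaging 1 FPKM or more, 4 lie on chromosome 9 and 2 on chromosome 16. These chromosomes hold 5.61% and 3.22% of all genes averaging 1 FPKM or more. The genes around a member mostly shared a direction on both chromosomes, so each member was set beside the other genes past 1 FPKM that start within 5 Mb of it. These positions are from RefSeq on GRCm38.p6. Cdon had 28 such neighbours, of which 27 were higher in KO, with a median log2 fold change of 0.35. Neo1 had 69, of which 59 were higher, with a median of 0.32. Above its neighbours, Cdon stood at 0.43 and Neo1 at 0.45, less than their plain log2 fold changes. Vcam1, on chromosome 3, had 16 neighbours with a median of 0.19 and stood 0.47 above them.

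The members on chromosome 16 went against their surroundings. Boc lies from 44485045 to 44558870, and 14 of its 19 neighbours were lower in KO, with a median of -0.26. Spice1 and Nepro, the nearest genes on either side, had log2 fold changes of -0.27 and -0.30. Boc stood 0.94 above the median of its neighbours, the largest such difference of the 10 genes. Alcam, from 52248996 to 52453081, had 19 neighbours, of which 17 were lower, with a median of -0.38. Alcam was higher than all 19 and stood 0.66 above that median, more than its own log2 fold change of 0.28. Cblb and Nfkbiz on either side of Alcam had -0.88 and -0.51.

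Ncam1 and Cadm1 share most of their surroundings on chromosome 9, where Ncam1 runs from 49502129 to 49799393 and Cadm1 from 47530170 to 47862280. Of the 51 neighbours of Ncam1, 46 were higher in KO, with a median of 0.36, and 49 had a higher log2 fold change than Ncam1. Ncam1 stood at -0.53 relative to that median. Cadm1 had 64 neighbours with a median of 0.37, so its small positive log2 fold change became -0.17 relative to them. Mcam and Icam1, also on this chromosome, had 50 and 63 neighbours with medians of 0.43 and 0.30. L1cam, on the X chromosome, had 54 neighbours with a median of -0.09. The regional medians were not tested for a cause.

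**Figure D3:**
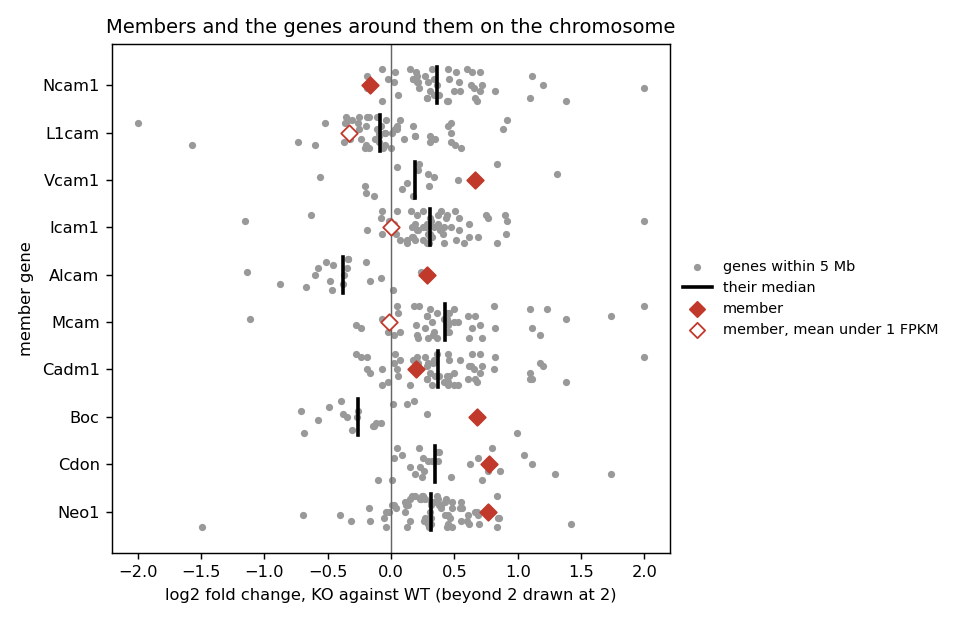
Log2 fold change, KO against WT, of each member (red diamond, open where its mean was under 1 FPKM) and of the other genes averaging 1 FPKM or more that start within 5 Mb of it (grey points, black bar at their median, values beyond 2 drawn at 2). Boc and Alcam lay above surroundings with negative medians, and Ncam1 lay below surroundings with a positive median.

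The genes that work with the promyogenic receptors did not share one direction. Among 12 ligands of Cdon, Boc and Neo1, 5 averaged 1 FPKM or more, 0 were more than 2-fold higher or lower and the median was 0.10. The netrin Ntn1, a ligand of Neo1, was the highest at 25.2 FPKM in WT and 27.1 FPKM in KO. Rgma and Rgmb, the repulsive guidance molecules that bind Neo1, had 3.03 and 6.29 FPKM for Rgma and 4.41 and 4.12 FPKM for Rgmb in WT and KO. Rgma and the netrin Ntn4, at 0.613 and 1.55 FPKM, were past a plain ratio of 2, with KO to WT ratios of 2.07 and 2.52. Rgma, Rgmb and Ntn4 are named after their values were seen. Shh, the Hedgehog ligand bound by Cdon and Boc, was listed at 0 in both libraries. Of 17 co-receptors and Hedgehog pathway genes, 11 were past 1 FPKM, 0 were more than 2-fold higher and 1 was more than 2-fold lower. That gene was Unc5c, a netrin receptor, at 4.21 FPKM in WT and 0.385 FPKM in KO. Gas1, which acts with Cdon and Boc in Hedgehog reception, was the highest of this list, at 298 FPKM in WT and 270 FPKM in KO. Ptch1, a Hedgehog receptor and target gene, had 8.76 and 4.78 FPKM, and Gli1, another target, had 2.28 and 0.916 FPKM, both lower in KO while Cdon and Boc were higher. With nothing added, Gli1 was also past a plain ratio of 2, with a WT value 2.49 times the KO value. Ptch1 and Gli1 are named after their values were seen.

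Cdh2 and Cdh15, the N-cadherin and M-cadherin with which Cdon and Boc associate, differed from each other. Cdh2 had 36.0 FPKM in WT and 38.9 FPKM in KO, whereas Cdh15 had 16.6 FPKM in WT and 0.701 FPKM in KO. Of the 13 partners and signalling genes on this list, 12 were past 1 FPKM, and Cdh15 was the only 1 more than 2-fold lower, with 0 more than 2-fold higher and a median of 0.11. Bnip2 and Spag9, scaffold proteins that bind the inside part of Cdon, had log2 fold changes of 0.26 and 0.00, and Mapk14, the kinase p38 alpha that acts below them, had 0.02. Cdc42, the small GTPase of the same route, was the highest of the list at 248 FPKM in WT and 269 FPKM in KO.

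**Figure D4:**
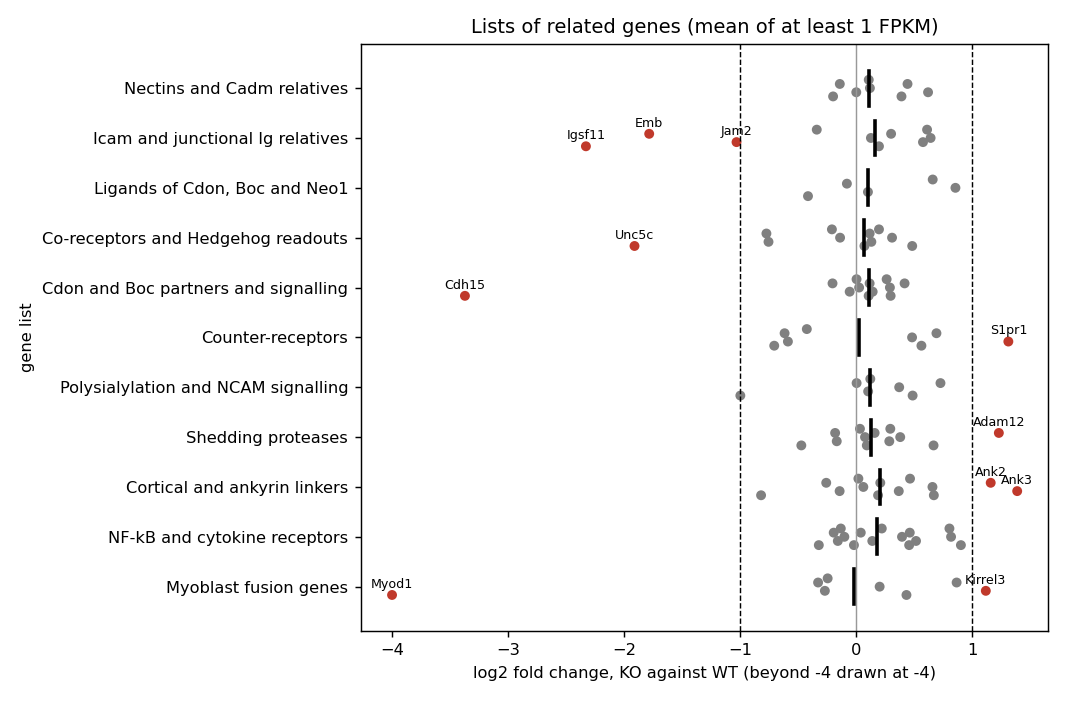
Log2 fold change, KO against WT, of the genes averaging 1 FPKM or more on 11 lists of relatives, ligands, partners and regulators of the members (points, red and named beyond a 2-fold difference, black bar at the median of each list, values beyond -4 drawn at -4). Myod1, at -5.93 and drawn at -4, Cdh15 and Unc5c lay far below the other genes of their lists. Igsf11, Emb and Jam2 were also more than 2-fold lower, and S1pr1, Adam12, Ank2, Ank3 and Kirrel3 more than 2-fold higher. The list medians lay between -0.02 and 0.21.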

How the data were processed

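RNA of C2C12 cells was measured in 2 libraries, 1 WT and 1 KO, grouped by the genotype label. The authors deposited 1 value per gene symbol with no unit. The authors' values were taken as FPKM. The column totals differ and low values step with transcript length, but neither sets FPKM apart from TPM over part of the genes. A TPM table restricted to these genes would give like fold changes. The submitters' processing notes name Trim Galore 0.6.6, STAR 2.7.9a and RSEM 1.3.3 with GRCm38, whereas the methods of the study name GRCm39. The notes state a stranded Illumina kit and the methods a directional MGI kit. The tool that wrote the values is not given in the sources used here. Without the number of reads, no counting interval could be computed.

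For 24 repeats of a symbol among 21853 rows, the entry higher on average was used. Counts of genes cover the 10542 that averaged 1 FPKM or more, and 1 was added before the log2 ratio. A count model was not used because the values are not counts. Positions came from RefSeq on GRCm38.p6, which placed 21264 symbols, promoters from a RefSeq table of the same build, and transcript length and GC content from GENCODE vM39, which matched 10171 of the 10542 genes. The members and lists were chosen with earlier results of these data known. Listed genes were named if past 2-fold, at most 4 per list, or if highest in their list, and others are marked as named after their values were seen or are named for their role beside a member. The 7 alternatives were median-of-ratios scaling, an added 0.1 or 5 in place of 1, all genes without a filter, only genes averaging 5 FPKM or more, subtraction of the median of genes within 5 Mb and removal of lowess trends (span 0.3) on GC content and length. A plain ratio with nothing added was tried after seeing the data. The fold and neighbour calculations were tested on simulated data. Calculations used pandas 2.3.3 and numpy 2.4.6 under Python 3.11.15, trends statsmodels 0.14.6 and plots matplotlib 3.10.9.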

Additional observations from a re-analysis of the deposited data

How the results depend on the processing

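With 1 library per line, no library could be left out. No paired analysis was possible because each group holds a single library. None of the 7 expressed members was more than 2-fold higher or lower under any of the first 7 alternatives. With nothing added, an alternative chosen after seeing the data, 1 member, Boc, was past 2-fold. Cdon, Neo1, Boc, Vcam1 and Alcam kept a positive log2 fold change and Ncam1 a negative one wherever they were computed. The ranges over the alternatives were 0.43 to 0.84 for Cdon, 0.45 to 0.78 for Neo1, 0.28 to 1.04 for Boc, 0.47 to 0.68 for Vcam1 and -0.53 to -0.13 for Ncam1. Boc averaged less than 5 FPKM and dropped out under that filter. Shifts of up to 0.44 on the log2 scale, the interquartile range over all genes, were taken as small, and L1cam, at -1.77 with an added 0.1 and -5.24 with nothing added, was the only member beyond it. The median of the members, 0.66, was 0.28 with an added 5, 0.24 without a filter, 0.47 with the filter at 5 FPKM, 0.45 relative to neighbouring genes and 0.68 with nothing added. The counts over all genes, 299 higher and 362 lower past 2-fold, became 102 and 176 with an added 5, and the filter at 5 FPKM, which counts fewer genes, gave 145 and 221. Relative to neighbouring genes, Cadm1 went from 0.20 to -0.17, the median of the Icam and junctional relatives from 0.16 to -0.096 and that of the fusion genes from -0.023 to 0.062. The median of the counter-receptors went from 0.03 to -0.10 with an added 5 and to -0.43 with the filter at 5 FPKM, and under the latter that of the ligands went from 0.10 to -0.16. Without a filter, that of the co-receptors went from 0.07 to -0.020. The cause of these sign changes was not tested.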

Other observations

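Several immunoglobulin-family relatives outside the 10 genes had wider log2 fold changes, with 1 added, than any of them. Of 19 Icam and junctional relatives, 10 averaged 1 FPKM or more, of which 3 were more than 2-fold lower in KO and 0 more than 2-fold higher, with a median log2 fold change of 0.16. Igsf11, a homophilic adhesion molecule, had 4.16 FPKM in WT and 0.026 FPKM in KO. Emb, embigin, a partner of monocarboxylate transporters, had 10.0 FPKM in WT and 2.19 FPKM in KO. Jam2, a junctional adhesion molecule, had 11.6 and 5.14 FPKM. Bsg, basigin, the relative of embigin with the same kind of partners, was the highest of the list, at 376 FPKM in WT and 560.5 FPKM in KO. Of 13 nectin and Cadm relatives, 8 were past 1 FPKM and 0 were more than 2-fold higher or lower, with a median of 0.11. The highest was Epb41l3, an intracellular binding partner of Cadm1, at 48.8 and 53.0 FPKM.

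Among 13 linkers between adhesion molecules and the cytoskeleton, 2 ankyrins, to which L1 family members can bind, were more than 2-fold higher in KO and 0 genes were more than 2-fold lower, with a median of 0.21. Ank3 had 2.35 FPKM in WT and 7.75 FPKM in KO, and Ank2 had 1.13 and 3.76 FPKM. Msn, moesin, was the highest at 195 and 197 FPKM. Of 13 shedding proteases and their relatives, 12 were past 1 FPKM, and Adam12 was the only 1 more than 2-fold higher, at 4.58 FPKM in WT and 12.1 FPKM in KO, with 0 lower and a median of 0.12. The highest was Aph1a, a gamma-secretase subunit, at 66.7 and 81.5 FPKM. Of 14 genes listed as counter-receptors or beside them, 8 were past 1 FPKM, with a median of 0.03. S1pr1, a lipid receptor and not a counter-receptor, was the only 1 more than 2-fold higher, at 4.67 and 13.0 FPKM, with 0 lower. The highest, the galectin Lgals1, had 4918 FPKM in WT and 3660 FPKM in KO.

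Of 17 genes linked to myoblast fusion, 8 were past 1 FPKM, with a median of -0.02. Kirrel3, an immunoglobulin-family receptor, was more than 2-fold higher, at 4.20 FPKM in WT and 10.3 FPKM in KO. Myod1 was more than 2-fold lower, at 60.0 FPKM in WT and listed at 0 in KO. Cd9, a tetraspanin, was the highest, at 355 and 294 FPKM. Of 13 polysialylation and Ncam1 signalling genes, 7 were past 1 FPKM and 0 were more than 2-fold higher or lower, with a median of 0.12. Gdnf, a ligand that can signal through Ncam1, had 17.4 FPKM in WT and 8.2 FPKM in KO, past a plain ratio of 2 at a WT to KO ratio of 2.12, and is named after its values were seen. The highest was Prnp, the prion protein, which binds Ncam1, at 68.0 and 74.0 FPKM. Of the 16 NF-kB and cytokine receptor genes the highest was Tnfrsf1a, a receptor for tumour necrosis factor, at 66.5 and 68.3 FPKM.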
